A study of Mus musculus with 4 samples.

Results

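The cholesterol synthesis and SREBP2 target genes examined here are 26 named genes: the enzymes from acetoacetyl-CoA to cholesterol, the sterol sensing proteins that govern them, a sterol carrier and the reductases that donate electrons to the pathway. A gene was counted as measured where an array probe set named it and no other gene, and the probe set with the highest mean over the arrays was used. By this rule 23 of the 26 genes were measured, among 22180 genes in all. Idi1 was left out because its probe set also names another gene, and Acat2 and Por were not analysed here.

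The RNA came from peritoneal macrophages elicited with thioglycollate in 129S6/SvEvTac (129) and DBA/2J (DBA) mice, all wild type, 3 months old and fed regular chow. Each mouse received 1 ml of 4% thioglycollate medium and the cells were collected 4 days later and kept overnight in culture medium with serum. Equal amounts of RNA were combined into 1 pool for each strain and sex, 129 female, 129 male, DBA female and DBA male, and 250 ng was labelled for each of the 4 arrays. The labels give 3 mice per pool and the methods of the study a larger number, so that a pool is an average over mice and holds no spread between them. Each strain thus had 2 replicates, a female and a male pool, so that sex is part of the spread within a strain. Expression is given as the deposited log2 value of a probe set, and a difference is DBA minus 129 on that scale. The question was whether macrophages of the atherosclerosis-susceptible strain and of the resistant strain differ in these genes.

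Cells make cholesterol from acetyl-CoA through mevalonate, farnesyl diphosphate, squalene and lanosterol. SREBP2 is the transcription factor that switches on most of these enzymes. When sterols are plentiful, Insig proteins hold Scap and SREBP2 in the endoplasmic reticulum. When sterols fall, Scap escorts SREBP2 to the Golgi, where it is cleaved and released to the nucleus. Macrophages take up lipoprotein cholesterol and so meet large changes in sterol supply, which is why this pathway is followed in foam cells and in atherosclerosis.

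Promoter sequence of 4 genes is shown because the values described below turn on them. Cyp51 and Nsdhl had the largest positive differences between the strains among the sterol enzymes, Sc5d had the largest negative one, and Hmgcs1 was the gene in which the sterol element was found. Each run is 300 bases from RefSeq on build GRCm38.p6, 5′ to 3′ on the strand of the gene, ending 50 bases past its start. Capitals mark matches on either strand to TCACNCCAC, the core of a sterol response element, and to CCAAT, the box bound by NF-Y, which reads ATTGG on the opposite strand. Hmgcs1 lies at chr13:119690101-119690400 on the plus strand, Cyp51 at chr5:4104648-4104947 on the minus strand, Nsdhl at chrX:72918271-72918570 on the plus strand and Sc5d at chr9:42264251-42264550 on the minus strand.
Hmgcs1: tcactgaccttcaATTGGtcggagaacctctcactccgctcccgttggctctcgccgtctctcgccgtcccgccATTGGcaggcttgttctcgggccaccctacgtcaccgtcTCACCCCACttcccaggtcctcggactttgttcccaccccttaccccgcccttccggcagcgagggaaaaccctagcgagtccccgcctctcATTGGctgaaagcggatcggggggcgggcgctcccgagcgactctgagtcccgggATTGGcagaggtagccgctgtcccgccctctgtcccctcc
Cyp51: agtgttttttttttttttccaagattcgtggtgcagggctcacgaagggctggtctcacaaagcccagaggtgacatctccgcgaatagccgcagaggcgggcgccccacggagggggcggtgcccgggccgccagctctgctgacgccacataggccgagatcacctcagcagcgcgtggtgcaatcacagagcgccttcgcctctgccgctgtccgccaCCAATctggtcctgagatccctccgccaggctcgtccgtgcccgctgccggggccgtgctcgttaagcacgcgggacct
Nsdhl: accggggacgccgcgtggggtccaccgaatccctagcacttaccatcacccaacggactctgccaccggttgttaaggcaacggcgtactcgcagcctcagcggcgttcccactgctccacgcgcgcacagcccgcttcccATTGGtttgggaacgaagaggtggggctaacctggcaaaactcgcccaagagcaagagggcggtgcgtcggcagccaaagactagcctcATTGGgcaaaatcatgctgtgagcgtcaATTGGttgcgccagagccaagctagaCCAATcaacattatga
Sc5d: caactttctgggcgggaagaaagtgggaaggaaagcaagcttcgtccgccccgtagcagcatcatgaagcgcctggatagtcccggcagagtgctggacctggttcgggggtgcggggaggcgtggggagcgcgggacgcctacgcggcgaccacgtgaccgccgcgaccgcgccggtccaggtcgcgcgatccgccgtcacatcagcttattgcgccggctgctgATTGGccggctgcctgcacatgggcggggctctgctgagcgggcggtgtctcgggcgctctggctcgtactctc

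RefSeq promoters were matched by symbol for 21 of the 26 genes, with 27 start sites in all, and none was matched for Cyb5r3, Fdft1, Fdps, Sqle and Stard4. Of the 21 genes 1, Hmgcs1, held TCACNCCAC, which was present in 1.24% of 32851 promoters of the same length. CCAAT was found in 18 of the 27 promoters, against 37.4% of all promoters, and it occurred 4 times in Hmgcs1 and 4 times in Nsdhl. GGGCGG, the Sp1 box, which is not in capitals, was found in 22 of the 27 against 35.7% of all promoters. No match to one of these motifs overlapped a match to another. A match describes the letters of the reference strain and is no measure of binding, and no match says only that these letters are not in this window.

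None of the 23 genes passed the test between DBA and 129 in either direction over all genes (limma, adjusted p from 0.325 to 0.964), where 0.216% of all genes passed as higher in DBA and 0.158% as lower. At an unadjusted p under 0.05, 5 of the 23 had higher values in DBA and none had lower ones, against 6.44% and 5.08% of all genes. The 5 were Cyp51, Cyb5r3, Nsdhl, Hsd17b7 and Ggps1. The differences of the 23 genes ran from -0.22 for Sc5d to 0.42 for Cyp51, with a median of 0.15, and all 23 differed by less than 1.5-fold. The median was 0.004 over all genes and 0.07 over the 11090 genes whose mean level lay above the median, a class to which all 23 belong. In 18 of the 23 the difference was above 0, as in 51.0% of all genes and 65.3% of those above the median level. Both DBA pools lay above both 129 pools in 7 genes and below them in 2, where 23.0% and 21.4% of all genes had such pools and 33.2% of the genes above the median level had DBA above. The arrays were also set to a common median, taken over all 41345 probe sets. The split was then 11 above and 1 below, against 30.3% and 10.1% of all genes under that scaling. As deposited, the medians of all probe sets lay from 7.179 (DBA male) to 7.371 (129 male). Those of the tested genes alone lay closer together, from 7.655 (DBA female) to 7.703 (129 female). The scaling moved the median difference over all genes from 0.0045 to 0.0961, towards higher values in DBA. The smallest p that an exact permutation test allows for 2 pools in each strain is 0.333.

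**Figure D1:**
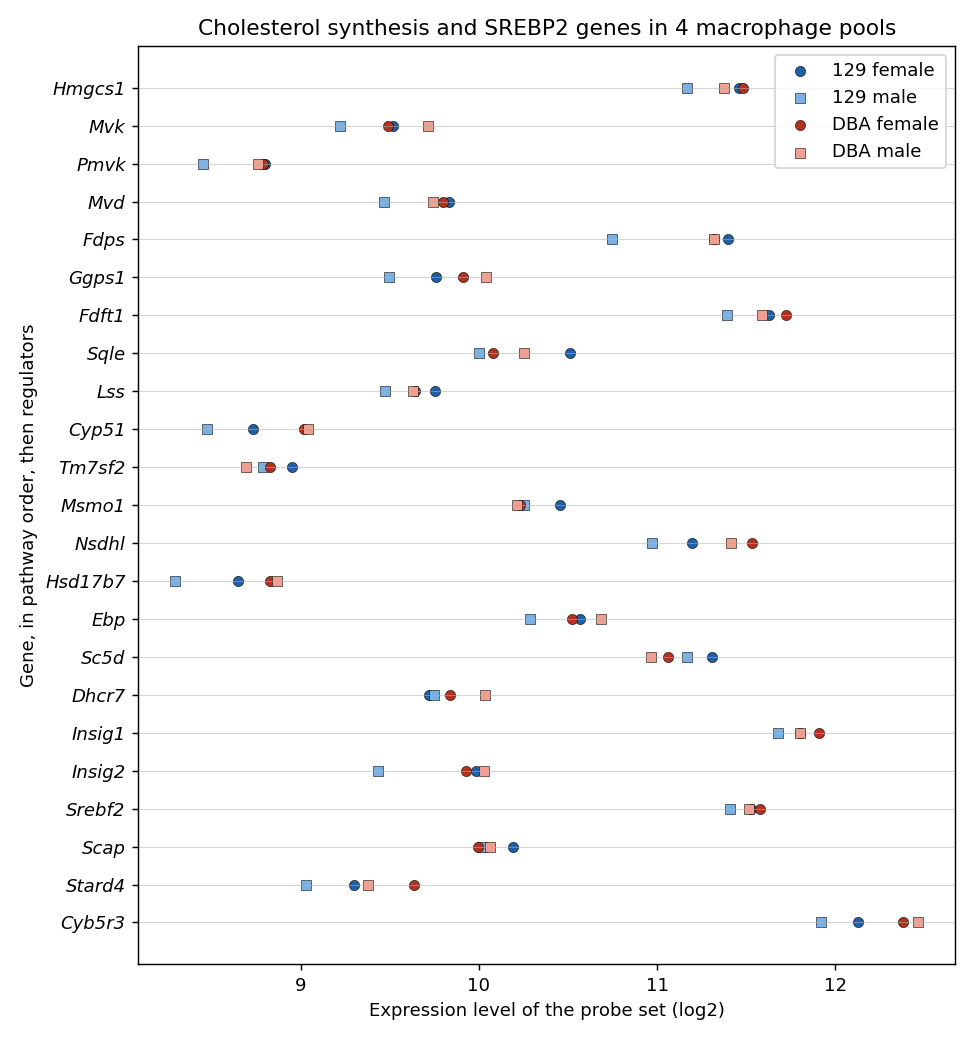
Log2 expression level of the probe set of each of the 23 genes (x axis) in the 4 pools, with genes in pathway order followed by the regulators, the sterol carrier and the electron donor. Blue symbols are 129 and red symbols DBA pools, circles are female and squares male pools, and the 129 male pool is the lowest of the 4 in 18 genes.

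The 129 male pool set much of this pattern. It was the lowest of the 4 pools in 18 of the 23 genes, where it was the lowest in 36.0% of all genes and in 50.9% of the genes above the median level, so that brighter genes in general tended to be low on this array. The 129 female pool was the highest of the 4 in 9 of the 23 genes, and the 129 male pool in none. After quantile normalization the 129 male pool was lowest in 17 of the 23, and with a common median in 22, against 49.7% and 68.4% of the genes above the median level under the same scaling. Without the 129 male pool the median difference of the 23 genes was 0.02, with 12 of 23 above 0 and none at an unadjusted p under 0.05. Without the 129 female pool it was 0.30, with 20 above 0 and 8 at an unadjusted p under 0.05, all higher in DBA. No gene of the 23 passed the adjusted threshold without any single pool. The part of the array as a whole in the low values of the 129 male pool was not tested.

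The intervals show what sizes of difference these arrays leave. The 95% interval of limma excluded 0 in 5 genes and held 0 in 18. The lowest bound was a DBA to 129 ratio of 0.677, for Sqle, and the highest was 1.73, for Fdps. A difference beyond these ratios lay outside the interval of every one of the 23 genes. Each interval holds for 1 gene taken alone, so the 2 bounds carry no 95% coverage for the 23 genes together.

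**Figure D2:**
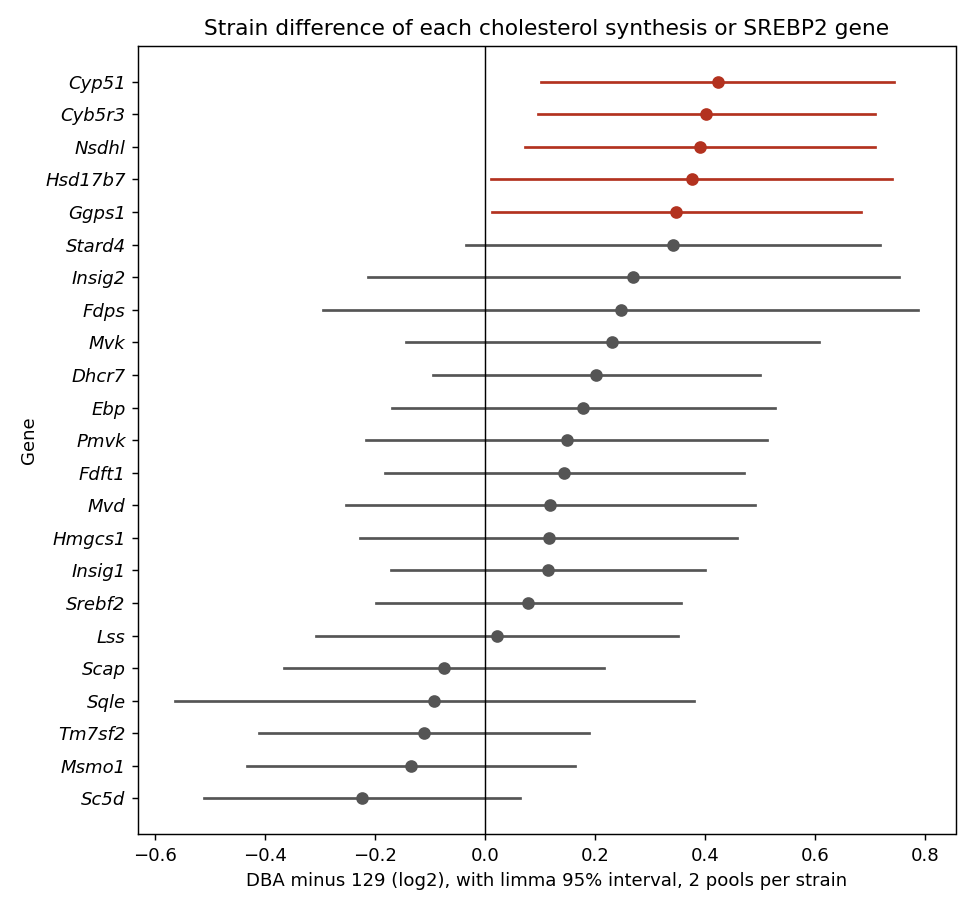
Difference between DBA and 129 (x axis, log2) for each of the 23 genes, sorted by size, with the 95% interval of limma from 2 pools per strain. Red marks the 5 genes whose interval lies above 0, led by Cyp51 at 0.42, and Sc5d at -0.22 is lowest.

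The early enzymes carry acetyl units to mevalonate and on to isoprenoid diphosphates. All 6 measured genes of this stretch had values above 0, with a median difference of 0.19, and in all 6 the 129 male pool was the lowest. Ggps1 (probe set 17290729), which makes geranylgeranyl diphosphate for protein prenylation, had levels of 9.76 (129 female), 9.50 (129 male), 9.91 (DBA female) and 10.04 (DBA male). Both DBA pools of Ggps1 were thus above both 129 pools, with a difference of 0.35 (standard error 0.14, unadjusted p = 0.0441, adjusted p = 0.418, limma) and a ratio of 1.27. Fdps (probe set 17406908), the farnesyl diphosphate synthase at the branch point to sterols, had levels of 11.40 (129 female), 10.75 (129 male), 11.32 (DBA female) and 11.32 (DBA male). In Fdps 3 pools lay close together and the 129 male pool lay 0.65 below the 129 female pool, the widest gap between the sexes in any of the 23 genes. Its difference of 0.25 (standard error 0.22, adjusted p = 0.684) did not exceed that spread.

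The other mevalonate enzymes had smaller differences. Hmgcs1, the HMG-CoA synthase whose promoter held the sterol element, differed by 0.12 (standard error 0.14). Its levels were 11.46 (129 female), 11.17 (129 male), 11.48 (DBA female) and 11.38 (DBA male), so that the strains overlapped. Mvk, which phosphorylates mevalonate, differed by 0.23 (standard error 0.15). Pmvk, which adds the next phosphate, differed by 0.15 (standard error 0.15), and Mvd, which decarboxylates the product, by 0.12 (standard error 0.15). In each of these genes the strains overlapped.

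Cyp51 (probe set 17445308), the cytochrome P450 that removes a methyl group from lanosterol, had the largest difference of the 23 genes. Its levels were 8.74 (129 female), 8.48 (129 male), 9.02 (DBA female) and 9.04 (DBA male). Both DBA pools exceeded both 129 pools, with a difference of 0.42 (standard error 0.13, unadjusted p = 0.0182, adjusted p = 0.325, limma) and a ratio of 1.34. Without the 129 male pool the difference of Cyp51 was 0.29 (adjusted p = 0.834), and over all alternatives its adjusted p ranged from 0.209 to 0.834.

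Msmo1, Nsdhl and Hsd17b7 encode the enzymes that act in turn to remove the methyl groups at carbon 4 of the sterol ring, and their values lay on opposite sides. Nsdhl (probe set 17535434), the dehydrogenase, had levels of 11.20 (129 female), 10.97 (129 male), 11.54 (DBA female) and 11.41 (DBA male). All DBA values of Nsdhl were above all 129 values, with a difference of 0.39 (standard error 0.13, unadjusted p = 0.0242, adjusted p = 0.351, limma) and a ratio of 1.31. Hsd17b7 (probe set 17229466), the ketone reductase, had levels of 8.65 (129 female), 8.30 (129 male), 8.83 (DBA female) and 8.87 (DBA male). Its pools did not overlap either, with a difference of 0.38 (standard error 0.15, unadjusted p = 0.0448, adjusted p = 0.418). Msmo1 (probe set 17509629), the monooxygenase that starts the sequence, had levels of 10.46 (129 female), 10.25 (129 male), 10.23 (DBA female) and 10.21 (DBA male). Here both DBA pools were below both 129 pools by a small margin, with a difference of -0.13 (standard error 0.12, adjusted p = 0.69). Whether these genes differ from each other in their strain difference was not tested.

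Sc5d (probe set 17525955), a desaturase of the last steps, was the other gene with both DBA pools below both 129 pools. Its levels were 11.31 (129 female), 11.17 (129 male), 11.06 (DBA female) and 10.97 (DBA male), a difference of -0.22 (standard error 0.12, adjusted p = 0.513). Dhcr7 (probe set 17485357), which forms cholesterol in the final reduction, had levels of 9.72 (129 female), 9.75 (129 male), 9.84 (DBA female) and 10.04 (DBA male). It was the only one of the 23 genes in which the 129 male pool was not below the 129 female pool, and its DBA pools were both higher, with a difference of 0.20 (standard error 0.12, adjusted p = 0.558). Msmo1, Sc5d and Dhcr7 are given in full after their values were seen, because their pools did not overlap.

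The remaining sterol enzymes overlapped between the strains. Fdft1, the squalene synthase, differed by 0.14 (standard error 0.13), and Lss, which closes squalene epoxide to lanosterol, by 0.02 (standard error 0.13). Sqle, the epoxidase that is a rate-limiting enzyme of the later pathway, differed by -0.09 (standard error 0.19). Its female pools differed by -0.43 and its male pools by 0.25, so that the mean of the strains hid values of opposite sign. Tm7sf2, a sterol reductase, differed by -0.11 (standard error 0.12), and Ebp, a sterol isomerase, by 0.18 (standard error 0.14).

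None of the 4 genes of SREBP2 and the proteins that control it had an unadjusted p under 0.05. Srebf2 (probe set 17313504), which encodes SREBP2 itself, had levels of 11.53 (129 female), 11.41 (129 male), 11.58 (DBA female) and 11.51 (DBA male). Its strains overlapped and the difference of 0.08 (standard error 0.11, adjusted p = 0.813) had a 95% interval from -0.20 to 0.36. Insig1 (probe set 17435584), the sterol sensor that is itself a target of SREBP2, had levels of 11.80 (129 female), 11.68 (129 male), 11.91 (DBA female) and 11.80 (DBA male). Its difference of 0.12 (standard error 0.12, adjusted p = 0.722) had a 95% interval from -0.17 to 0.40.

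Insig2 (probe set 17226346), the second retention protein, had levels of 9.98 (129 female), 9.43 (129 male), 9.93 (DBA female) and 10.03 (DBA male). As in Fdps, 3 pools lay together and the 129 male pool was lower, and the difference was 0.27 (standard error 0.20, adjusted p = 0.626), with a 95% interval from -0.21 to 0.75. Scap (probe set 17522338), the escort protein, had levels of 10.19 (129 female), 10.02 (129 male), 10.00 (DBA female) and 10.06 (DBA male), a difference of -0.07 (standard error 0.12, adjusted p = 0.832). A second probe set of Scap, at levels from 7.02 to 7.28, gave a difference of 0.03. Its mean of 7.14 lay below 7.17, the level under which 95% of the olfactory and vomeronasal receptor genes lay. The sign of a probe set at this level is not read, and neither difference exceeded the spread of the pools.

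Stard4 (probe set 17353358), a soluble protein that carries sterol between membranes and is a target of SREBP2, had levels of 9.30 (129 female), 9.03 (129 male), 9.63 (DBA female) and 9.38 (DBA male). Both DBA pools were above both 129 pools, and the difference was of like size in the sexes, 0.34 in females and 0.35 in males. The overall difference of 0.34 (standard error 0.15, unadjusted p = 0.0674, adjusted p = 0.468, limma) did not pass. Cyb5r3 (probe set 17319783), a reductase that passes electrons to cytochrome b5 for sterol desaturation and demethylation, had levels of 12.13 (129 female), 11.92 (129 male), 12.38 (DBA female) and 12.47 (DBA male). Its strains did not overlap, with a difference of 0.40 (standard error 0.12, unadjusted p = 0.0186, adjusted p = 0.326) and a ratio of 1.32. Cyb5r3 also serves fatty acid desaturation and other pathways.

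The sexes were compared with strain in the model, which left 1 residual degree of freedom. None of the 23 genes passed in either direction (limma, adjusted p = 1.0 in every gene) and none had an unadjusted p under 0.05, where 0.018% and 1.73% of all genes did. In 22 of the 23 genes the male values were lower on average, with a median male minus female difference of -0.15, where it was -0.005 over all genes. The average combined unlike strains. In 129 the male pool was below the female pool in 22 of the 23 genes, with a median of -0.26, where it was below in 60.2% of all genes and in 69.7% of the genes above the median level. In DBA it was below in 13 of 23, with a median of -0.01, where 41.8% of all genes and 32.2% of those above the median level were below.

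The strain difference was also taken within each sex, from 1 pool against 1. In males 20 of the 23 genes had a higher value in DBA, with a median of 0.29, and in females 11 of 23, with a median of -0.01. Over the genes above the median level these medians were 0.17 and -0.01. In the values as deposited the male difference exceeded the female one in all 23 genes, by small margins in Stard4 and Insig1, where it did so in 60.5% of all genes and 71.6% of those above the median level. This count was made after the values were seen. The sign was opposite in the sexes in 9 of the 23 genes, where 45.9% of all genes had opposite signs. The genes with an unadjusted p under 0.05 had higher values in DBA in both sexes, with Nsdhl at 0.34 in females and 0.44 in males, Cyp51 at 0.28 and 0.56, and Cyb5r3 at 0.26 and 0.55. These genes were picked by a test on the same 4 pools, which favours genes whose pools agree. Their like sign in the sexes is therefore no separate evidence. Whether the sexes differ in the strain difference could not be tested, since 4 arrays leave nothing to estimate the spread once that term is fitted.

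**Figure D3:**
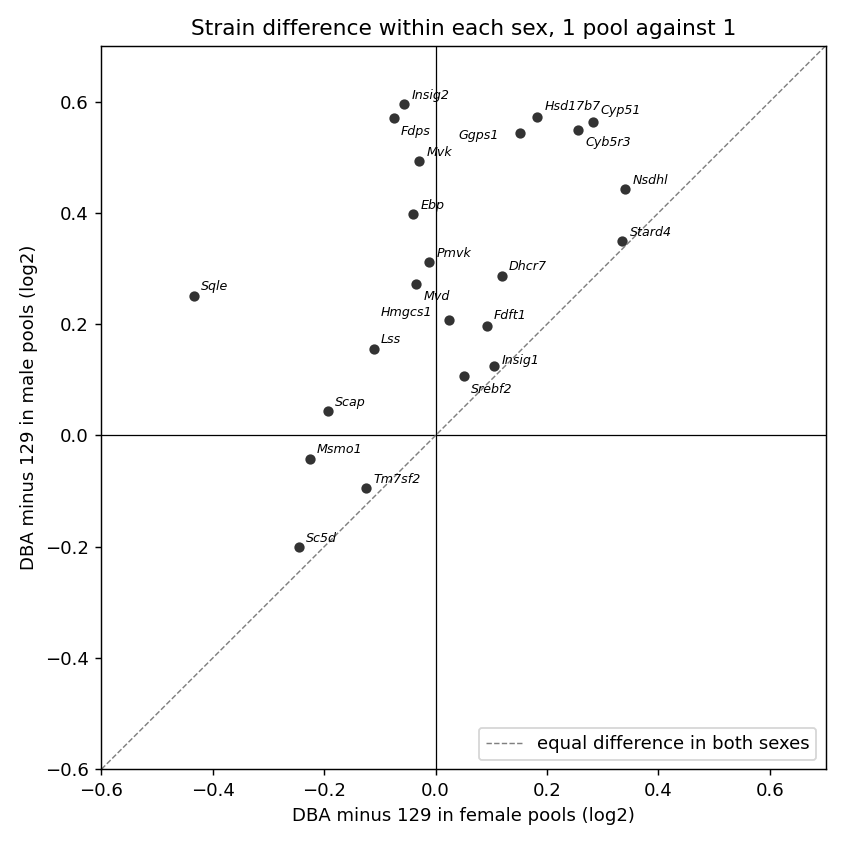
Difference between DBA and 129 in the female pools (x axis, log2) and in the male pools (y axis, log2), 1 pool against 1, for the 23 genes. All 23 points lie above the dashed line of equal difference, and 9 genes lie in quadrants of opposite sign, among them Sqle, Fdps and Insig2.

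Other genes of sterol metabolism are given by lists, whose counts at an unadjusted p under 0.05 stand against the 6.44% of all genes that were higher and the 5.08% that were lower. Of 21 SREBP pathway genes outside the 26, 15 were measured and none passed in either direction (limma), with 4 higher and none lower at an unadjusted p under 0.05 and a median difference of 0.11. The largest of the 4 was Mylip, a ubiquitin ligase and a target of LXR, the oxysterol-activated nuclear receptor. Mylip had levels of 10.52 (129 female), 10.37 (129 male), 10.98 (DBA female) and 10.97 (DBA male), a difference of 0.54 (standard error 0.11, adjusted p = 0.197). Erlin1 and Rnf139, which take part in degradation of sterol-regulated proteins in the endoplasmic reticulum, had differences of 0.29 (adjusted p = 0.391) and 0.31 (adjusted p = 0.398), with standard errors of 0.10 and 0.12. Acat1, the mitochondrial thiolase, had a difference of 0.36 (standard error 0.15, adjusted p = 0.429).

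Among the 12 measured for the isoprenoid branch none passed (limma), and 1 was lower and none higher at an unadjusted p under 0.05, with a median of 0.05. The lower one was Rabggtb, a subunit of the enzyme that attaches the geranylgeranyl group to Rab proteins. Its levels were 8.94 (129 female), 9.11 (129 male), 8.07 (DBA female) and 8.16 (DBA male). Its difference of -0.91 (standard error 0.12, adjusted p = 0.0675) was over 2 times as large as that of Cyp51. With the arrays set to a common median Rabggtb passed (limma, adjusted p = 0.0444), as did Me1, Marco, Cd22 and Ms4a1, which are described below. That scaling raised the number of genes passing from 83 to 253 over all genes, and the median difference over all genes from 0.0045 to 0.0961. The differences of Rabggtb and Cd22 were smaller in size under it than as deposited, at -0.82 and -1.75. Among the 10 LXR and oxysterol genes measured none passed, and at an unadjusted p under 0.05 there were 3 higher and 3 lower, with a median of -0.002. Abca1, the cholesterol exporter, differed by 0.44 (standard error 0.14, adjusted p = 0.349). Apoe, which encodes the lipoprotein component apolipoprotein E, had levels of 10.80 (129 female), 10.56 (129 male), 12.29 (DBA female) and 11.14 (DBA male), a difference of 1.04 (standard error 0.36, adjusted p = 0.37). Cyp27a1, which makes an oxysterol, differed by 0.56 (standard error 0.21, adjusted p = 0.395) and Nr1h3, which encodes LXR alpha, by -0.35 (standard error 0.13, adjusted p = 0.393). Among the 11 measured for fatty acid synthesis under SREBP1 none passed, with 3 higher and none lower at an unadjusted p under 0.05 and a median of 0.05. Me1, which supplies NADPH for lipid synthesis, differed by 0.87 (standard error 0.15, adjusted p = 0.138), and the desaturase genes Fads1 by 0.55 (adjusted p = 0.27) and Scd1 by 0.42 (adjusted p = 0.358), both with a standard error of 0.14.

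Markers of macrophages and of other cells were compared between the pools. Their counts at an unadjusted p under 0.05 also stand against the 6.44% of all genes that were higher and the 5.08% that were lower. In bulk RNA, more cells of a type and more RNA per cell cannot be told apart. Of 16 measured macrophage markers none passed, and at an unadjusted p under 0.05 there were 6 higher and 2 lower. The scavenger receptor gene Marco had the lowest p of them, with levels of 10.80 (129 female), 10.22 (129 male), 12.18 (DBA female) and 11.73 (DBA male), a difference of 1.45 (standard error 0.24, adjusted p = 0.119). Cd14, the co-receptor for endotoxin, differed by 0.75 (adjusted p = 0.258), Fcgr1, an Fc receptor, by 0.97 (adjusted p = 0.267), and Gata6, a transcription factor, by -0.50 (adjusted p = 0.27). Each of these 4 differences exceeded in size that of any of the 23 genes. The summed log2 level of the list ran from 16.2 to 16.3 in 129 and from 16.3 to 16.4 in DBA.

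Of 12 measured B cell markers none passed, and 8 were higher and 1 lower in DBA at an unadjusted p under 0.05. Cd22, a B cell receptor inhibitor, had the lowest p and lay opposite to the 8 higher ones. Its levels were 11.03 (129 female), 10.88 (129 male), 9.68 (DBA female) and 8.55 (DBA male), a difference of -1.84 (standard error 0.35, adjusted p = 0.168). Vpreb3 was the other marker with a lower value in DBA (-0.15), and its pools overlapped. Ms4a1, which encodes CD20, had levels of 8.08 (129 female), 7.90 (129 male), 10.44 (DBA female) and 9.04 (DBA male), a difference of 1.75 (standard error 0.43, adjusted p = 0.246). The summed log2 level of the list was 12.5 (129 female), 12.4 (129 male), 13.4 (DBA female) and 12.3 (DBA male). Cd22 made up 35.9% of that sum in the 129 female and 7.2% in the DBA male pool. Without it the sum was 11.9 (129 female), 11.7 (129 male), 13.3 (DBA female) and 12.2 (DBA male), so that the DBA male pool was no longer the lowest and both DBA pools were above both 129 pools.

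No marker of T and NK cells, neutrophils or mesothelial cells and fibroblasts passed the adjusted threshold. At an unadjusted p under 0.05, 2 of 13 T and NK cell markers were higher and 3 lower, 4 of 14 neutrophil markers were higher, and 1 of 12 mesothelial and fibroblast markers was higher and 5 lower. The summed log2 level of the T and NK cell list ran from 13.2 to 13.23 in 129 and from 12.9 to 13.0 in DBA, but Il7r alone made up from 79.1% to 84.3% of it. Without Il7r the sum ran from 10.6 to 10.7 in 129 and from 10.5 to 10.6 in DBA. The sum ran from 12.6 to 12.8 in 129 and from 12.9 to 13.4 in DBA for neutrophils, where Csf3r made up from 52.1% to 56.9%, and from 13.4 to 13.6 and from 13.0 to 13.3 for mesothelial cells and fibroblasts. Of 11 mast cell and eosinophil markers 1, the mast cell protease gene Mcpt4, passed as higher in DBA (limma, adjusted p = 0.0245). Its levels were 5.82 (129 female), 5.96 (129 male), 7.49 (DBA female) and 7.90 (DBA male), so that both 129 pools lay below 7.17, the level under which 95% of the olfactory and vomeronasal receptor genes lay, and no size is given. Mcpt4 did not pass without either 129 pool or with all probe sets tested (limma, adjusted p = 0.239). Nor did it pass with a crossed block, which paired each 129 pool with the DBA pool of the other sex (0.0756). With sex as a block it passed (adjusted p = 0.0361). The summed log2 level of that list ran from 11.1 to 11.5 in 129 and from 11.4 to 11.5 in DBA. Markers with a mean below 7.17 numbered 1 for macrophages, 3 for B cells, 7 for T and NK cells, 7 for neutrophils, 6, Mcpt4 among them, for mast cells and eosinophils, and 2 for mesothelial cells and fibroblasts. None of the 23 genes is a marker of one of these types, and the part of other cells in their values was not tested.

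**Figure D4:**
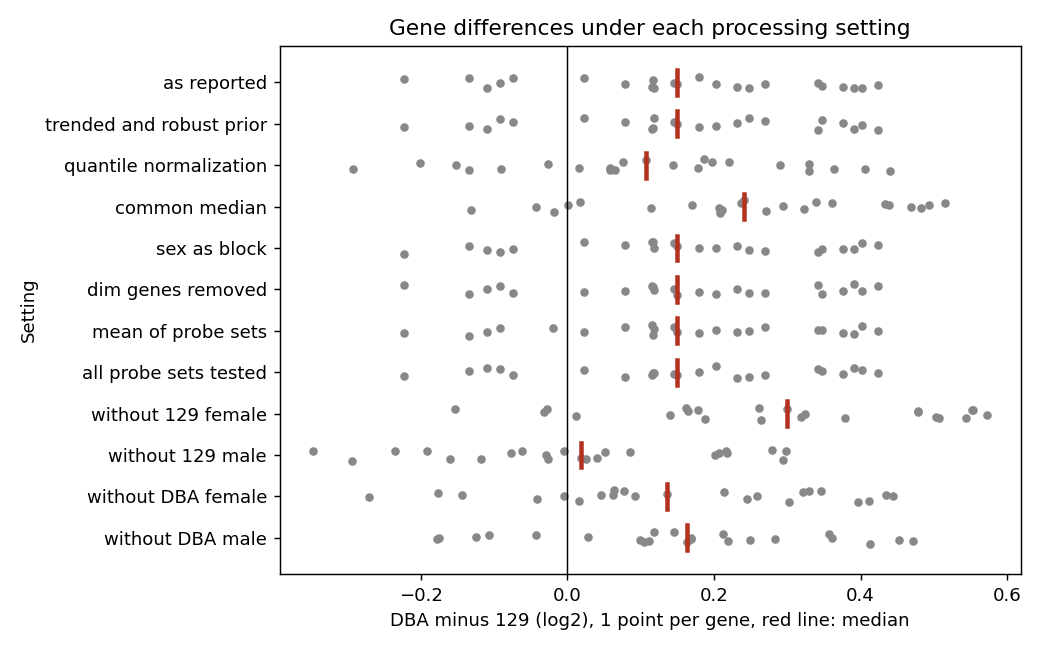
Difference between DBA and 129 (x axis, log2) of the 23 genes, 1 point per gene, under each processing setting (y axis), with the median as a red line. The median is 0.02 without the 129 male pool and 0.30 without the 129 female pool, and it lies between 0.11 and 0.24 under the other settings drawn.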

How the data were processed

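The deposited values are log2 expression values that the authors made with Affymetrix Expression Console, 1 whole-transcript mouse gene array per pool, for 41345 probe sets. How that program corrected background, summarised probes and normalized between arrays, and its version, is not given in the sources used here. Values lay between 1.71 and 14.2 and were used as deposited. The array annotation gave 23521 probe sets 1 gene symbol, 1820 several and 16004 none, and 23328 were matched by gene ID to current symbols (GRCm38.p6). Strains were tested by limma 3.58.1 (lmFit and eBayes, R 4.3.3) with strain as the sole term. The residual degrees of freedom were 2 and those of the prior 3.73. Benjamini-Hochberg adjustment ran over 22180 genes, at a threshold of 0.05. The procedure was also run on simulated data whose noise was independent and drawn from the fitted prior of limma. Such a run checks the steps of the fit and not how these pools vary. All 23 genes lay above 7.17, below which 95% of 1390 olfactory and vomeronasal receptor genes had their mean. The number of arrays limits the precision.

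Genes and lists were chosen with earlier results of these data known. Of the 23, values in every pool are given for genes at an unadjusted p under 0.05, the 8 largest differences, Srebf2, Scap, Insig1, Insig2 and Stard4. Outside that rule they are also given for Hmgcs1, whose promoter held the sterol element, and for Msmo1, Sc5d and Dhcr7. Of other lists up to 4 genes with the lowest p are named. Each strain and sex had 1 pool, so p-values measure the spread between pools, not between mice. Alternatives were quantile normalization, a trended and robust prior, sex as a block, and arrays set to a common median of all probe sets. Further ones were removal of genes below the median level, the mean of probe sets, all probe sets tested together, and each pool left out. The crossed block, the count of lowest pools by scaling and the sums without 1 gene were chosen after seeing the data.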

Additional observations from a re-analysis of the deposited data

Results flagged for a closer look

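In 9 of the 23 genes the DBA minus 129 difference had opposite signs in the sexes, where 45.9% of all genes had opposite signs. Each sex gave 1 pool against 1, and the difference between the sexes was not tested. Sqle was -0.434 in females and 0.251 in males. Insig2 was -0.056 in females and 0.595 in males, and Fdps was -0.075 and 0.57. Mvk was -0.029 and 0.493, Ebp was -0.04 and 0.398, Pmvk was -0.012 and 0.311, and Mvd was -0.035 and 0.273. Lss was -0.111 and 0.156, and Scap was -0.193 and 0.044. The female values of Pmvk, Mvk, Mvd, Ebp, Insig2 and Fdps were smaller in size than 0.099, the median spread within strains (SD). So was the male value of Scap. In each of the 9 the female value was below 0 and the male value above it. In 8 of them the 129 male pool was the lowest of the 4, and in Scap it was the DBA female pool.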

How the results depend on the processing

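No gene of the 23 passed the adjusted threshold between the strains in any alternative run. All 23 kept their direction with a trended and robust prior, with sex as a block, with dim genes removed, with the mean of probe sets, with all probe sets tested, and without either DBA pool. Lss was -0.0268 after quantile normalization, and with a common median Sqle was 0.0003 and Scap 0.0173. With 1 pool left out, values of both signs were found in 8 of the 23 genes and in Cpa3, a mast cell marker. Hmgcs1 ranged from -0.0286 to 0.2611, Pmvk from -0.0258 to 0.324, Mvd from -0.0624 to 0.3001, Fdps from -0.0776 to 0.5723, Lss from -0.1175 to 0.162, Insig2 from -0.0045 to 0.5439 and Cpa3 from -0.0286 to 0.3541, each lowest without the 129 male pool. Sqle ranged from -0.3466 to 0.1639 and Scap from -0.1603 to 0.0116, highest without the 129 female pool. The median of the 23 ranged from 0.0181 to 0.3001 when 1 pool was left out. The count at an unadjusted p under 0.05 and higher in DBA, 5 as reported, was 3 after quantile normalization, with sex as a replicate block and with all probe sets tested, and ranged from 0 to 8 when 1 pool was left out. Genes whose pools did not overlap numbered 11 above and 1 below with a common median, and ranged from 7 to 19 above and from 2 to 9 below when 1 pool was left out, which makes separation easier. Over all genes 83 passed as reported, 129 with a trended and robust prior, 253 with a common median, 47 with sex as a replicate block, 0 with all probe sets tested, and from 6 to 186 when 1 pool was left out. A fit with 1 pool of a strain assumes that it varies like the other strain. The labels pair pools by sex only, and the male minus female differences of the strains correlated at -0.193 over genes; a crossed block gave 27 genes in all and 5 of the 23 at an unadjusted p under 0.05. Between the sexes no gene of the 23 passed with quantile normalization, a trended and robust prior, a common median, dim genes removed, the mean of probe sets or strain left out of the fit. The cause of these changes was not tested.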
